A study of Arabidopsis thaliana with 8 samples.

Results

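AT1G35710 and AT4G08850 are a pair of related genes of Arabidopsis thaliana that encode leucine-rich repeat (LRR) receptor kinases, proteins with an outer domain of leucine-rich repeats, a membrane span and an inner kinase domain. Each is read on the ATH1 array, an Affymetrix expression array, by 1 probe set assigned to 1 gene. These 2 probe sets, ID.261339_at for AT1G35710 and ID.255116_at for AT4G08850, were followed among 22746 in all, of which 15296 were bright enough to be tested. Both were chosen by their lower signal in the elevated-CO2 arrays, so their difference between the groups is given as a description and supports nothing.

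AT4G08850 is known as MIK2, a surface receptor that perceives secreted SCOOP peptides and then signals with co-receptors of the SERK family. It is known for roles in sensing of the cell wall and in immunity. AT1G35710 is its closest relative, known as MIK2-LIKE. Receptors of this class pass the signal to cytoplasmic kinases, which act ahead of an oxidative burst, MAP kinases and defence genes.

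The arrays measured total RNA of developing leaves, insertions 19 to 21, of accession Col-0, all taken at 0 h. Growth was on compost, with a temperature of 20 °C, a humidity of 50% and a light period of 10 h. In the elevated group of 4 arrays the treatment text names elevated growth, and the label of elevated replicate 1 gives 750 ppm CO2 and 24 h of adjustment. The not-elevated group of 4 arrays holds the samples whose labels do not name elevated CO2. For all 8 samples a general growth field gives a normal atmosphere, and the separate treatment text decided the grouping. In that text CO2 itself is not named for elevated replicate 4. Not-elevated replicate 1 differs in its title code from the others of its group, and its treatment text has a letter where theirs speaks of a control. Nothing in the labels tells whether the replicates were separate plants, so a p-value here reflects only how far these samples vary, and that variation may be technical. In whole leaves, fewer cells of a type and less RNA per cell cannot be told apart.

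Signals are in array units, scaled so that the trimmed mean of each array was 100, and between 66.1% and 69.7% of the signals on an array reached 20 units. With limma on log2(signal + 10), 48 of the 15296 tested probe sets passed an adjusted p of 0.05, which is 0.314%. Of these, 30 were higher and 18 lower in elevated arrays, and the 18 are 0.118% of those tested. The groups did not overlap, with elevated arrays lower, in 492 probe sets, or 3.22%. Before adjustment, 1703 probe sets, or 11.1%, had a p under 0.05. The marker of photosynthetic cells named on the array, RCA, which encodes rubisco activase, read 3445 ± 223 units in elevated arrays and 3057 ± 492 units in not-elevated arrays (SD, n = 4 each, limma adjusted p = 0.592). FMA, the guard cell marker FAMA, read 63.4 ± 7.43 units in elevated arrays and 62.0 ± 12.5 units in not-elevated arrays (SD, n = 4 each, limma adjusted p = 0.951). The lists for epidermis, vascular tissue, meristem and root have no member named in the gene tables used here.

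AT4G08850, the SCOOP receptor, read 87.1, 94.8, 84.8 and 88.9 units in elevated replicates 1 to 4. It read 119.8, 166.2, 153.7 and 142.9 units in not-elevated replicates 1 to 4. All 4 elevated arrays lay below all 4 not-elevated arrays, with a gap of 25.04 units between the nearest values. The mean was 88.9 ± 4.27 units in elevated arrays and 145.6 ± 19.7 units in not-elevated arrays (SD, n = 4 each), so the elevated mean was 39.0% lower. On the log2(signal + 10) scale the difference was -0.65 ± 0.10 (SE), elevated minus not elevated.

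AT1G35710, the MIK2-LIKE gene, read 41.3, 42.7, 39.8 and 43.7 units in elevated replicates 1 to 4. It read 59.2, 89.0, 84.5 and 66.7 units in not-elevated replicates 1 to 4. The groups again did not overlap, and the gap between the nearest values was 15.5 units. The mean was 41.9 ± 1.67 units in elevated arrays and 74.8 ± 14.2 units in not-elevated arrays (SD, n = 4 each), so the elevated mean was 44.0% lower. The log2 difference was -0.69 ± 0.12 (SE). The 2 differences were thus close in size, and each lay within the SE of the other.

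**Figure D1:**
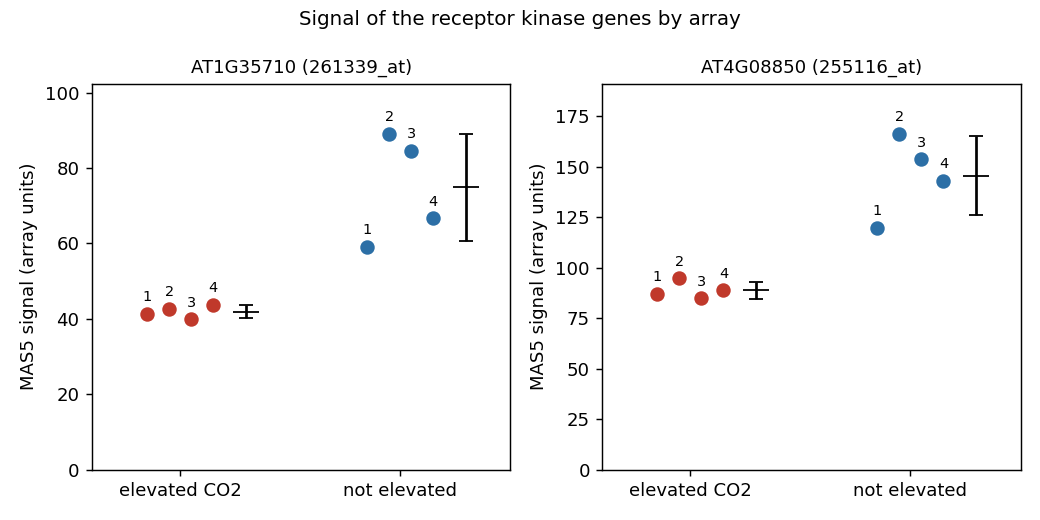
Signal of AT1G35710 (left panel) and AT4G08850 (right panel) in array units, 1 point per array with its replicate number, elevated arrays in red and not-elevated arrays in blue; the bars give the mean ± SD of 4 arrays. Elevated arrays sit between 39.8 and 43.7 units for AT1G35710 and between 84.8 and 94.8 units for AT4G08850, below every not-elevated array, and the not-elevated arrays are more spread.

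The values on which the pair was selected were adjusted p = 0.0273 for AT4G08850 and adjusted p = 0.0371 for AT1G35710 (limma, Benjamini-Hochberg over all 15296 tested probe sets). Of the probe sets with 1 gene that read lower in elevated arrays, 8 were inside the threshold, and the pair had the 2 smallest p-values of them. The last gene inside was AT5G19240, at 147 ± 10.6 units in elevated arrays and 225 ± 34.5 units in not-elevated arrays, with a selection value of adjusted p = 0.0489. The first gene outside was AT2G43590, at 123 ± 15.3 units in elevated arrays and 206 ± 41.7 units in not-elevated arrays, with adjusted p = 0.0647. Its log2 difference of -0.68 was as large as that of the pair, so the threshold parts genes of like size. The places of these 2 neighbours depended on the setting: AT5G19240 was inside in 4 of 17 alternatives and AT2G43590 in 3 of 17. Both were inside with array weights and with a filter at 50 units, and in most alternatives neither was.

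The place of the pair inside the threshold was lost in most fits with 1 array left out, while the direction was kept. Such fits have fewer samples, and why a place was lost was not tested. Without elevated replicate 4, for example, the log2 difference of AT4G08850 stayed at -0.65. Its SE went from 0.10 to 0.12, and limma adjusted p was 0.0890. Without not-elevated replicate 2 the log2 difference of AT4G08850 was smaller, at -0.58 with an SE of 0.11, and limma adjusted p was 0.102. With 1 array left out at a time, AT1G35710 stayed inside the threshold in 2 of 8 fits, those without not-elevated replicate 1 and without elevated replicate 3. AT4G08850 stayed inside in 3 of 8, the same fits and the one without elevated replicate 1. The log2 difference ranged between -0.79 and -0.62 for AT1G35710 and between -0.73 and -0.58 for AT4G08850 over the 8 fits, lower in elevated arrays in each. For both genes the largest difference came without not-elevated replicate 1, the array with the unlike labels, at adjusted p = 0.00942 for AT1G35710 and 0.00444 for AT4G08850. The highest values came without not-elevated replicate 3, at adjusted p = 0.156 for AT1G35710 and 0.119 for AT4G08850.

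**Figure D2:**
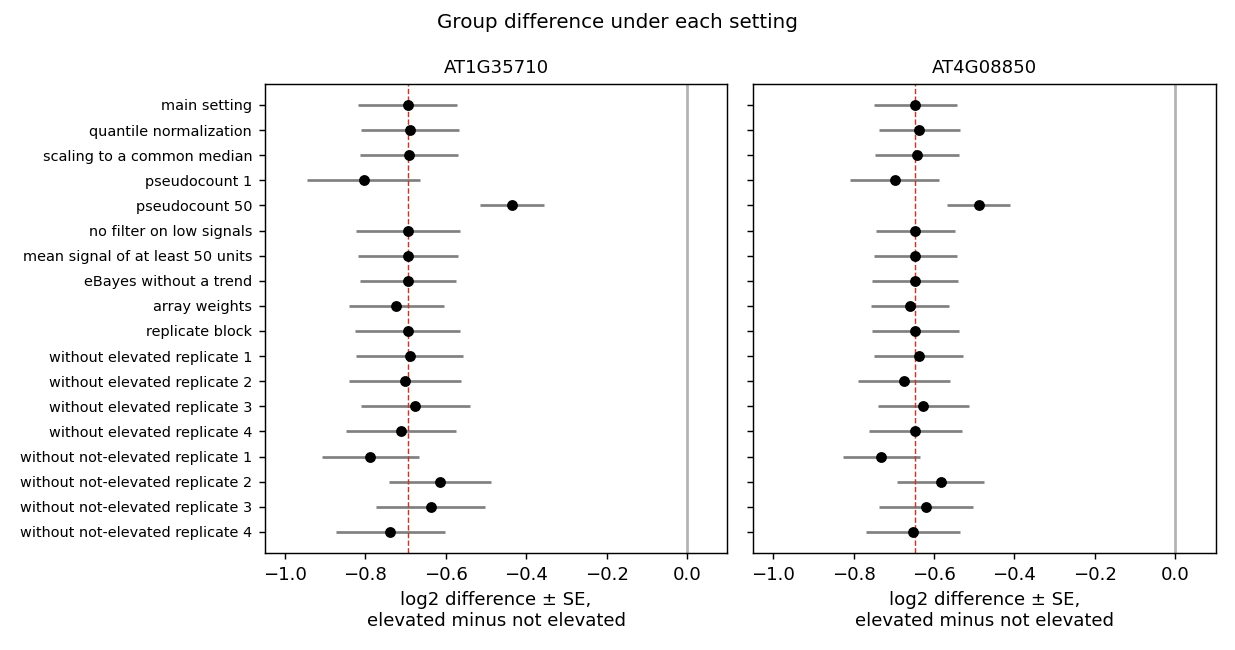
Log2 difference, elevated minus not elevated, of AT1G35710 (left) and AT4G08850 (right) on the horizontal axis under each processing setting on the vertical axis; points are estimates, bars the SE, the dashed line the value reported and the grey line no difference. All points lie below 0, and a pseudocount of 50 gives the values nearest to it, -0.44 for AT1G35710 and -0.49 for AT4G08850.

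Both genes varied less among the elevated arrays than among the not-elevated arrays. The coefficient of variation of AT1G35710 was 3.98% in elevated arrays and 19.0% in not-elevated arrays. For AT4G08850 it was 4.81% in elevated arrays and 13.5% in not-elevated arrays. On the log2(signal + 10) scale the SD of AT1G35710 was 0.046 in elevated arrays and 0.245 in not-elevated arrays. That of AT4G08850 was 0.062 in elevated arrays and 0.188 in not-elevated arrays. The array groups as a whole did not show such a gap, since the median SD of all tested probe sets was 0.159 in elevated arrays and 0.144 in not-elevated arrays. Of the tested probe sets, 3.21% had a lower SD than AT1G35710 in elevated arrays and 85.2% in not-elevated arrays. For AT4G08850 these shares were 6.78% in elevated arrays and 70.2% in not-elevated arrays. A small spread within groups lowers the p-value by which the pair was selected, so this contrast in spread is a description and was not tested.

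The pair also moved together from array to array inside the groups, which the choice by group difference did not set. As the deviation from its group mean on the log2(signal + 10) scale, AT1G35710 stood at -0.28, 0.24, 0.17 and -0.13 in not-elevated replicates 1 to 4. AT4G08850 stood at -0.25, 0.19, 0.08 and -0.02 in the same arrays. Both were thus lowest in not-elevated replicate 1, next lowest in replicate 4 and highest in replicate 2. In the elevated arrays the deviations stayed between -0.06 and 0.05 for AT1G35710 and between -0.06 and 0.08 for AT4G08850, and both were lowest in replicate 3.

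After each group's mean was removed, Pearson's r between the genes was 0.92 and Spearman's rho was 0.86 over the 8 arrays. For each sample both genes were read on the same array, with the same labelling and scaling. Most of the span came from not-elevated arrays, where r was 0.95, against 0.66 in elevated arrays (n = 4 each, too few to test). Without not-elevated replicates 1 and 2, the arrays farthest from the median of AT1G35710, r was 0.71 over 6 arrays. Leaving out 1 array at a time gave r between 0.83, without not-elevated replicate 1, and 0.97, without not-elevated replicate 4. For each gene, the other ranked 30 among the 15295 other tested probe sets by this r, with 0.190% of them above it. The median r of all tested probe sets was 0.020 with AT1G35710 and 0.030 with AT4G08850. The other 16 probe sets called lower in elevated arrays had r between -0.59 and 0.93 with AT1G35710, with a median of 0.26. Their r with AT4G08850 ran between -0.61 and 0.86, with a median of 0.27.

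**Figure D3:**
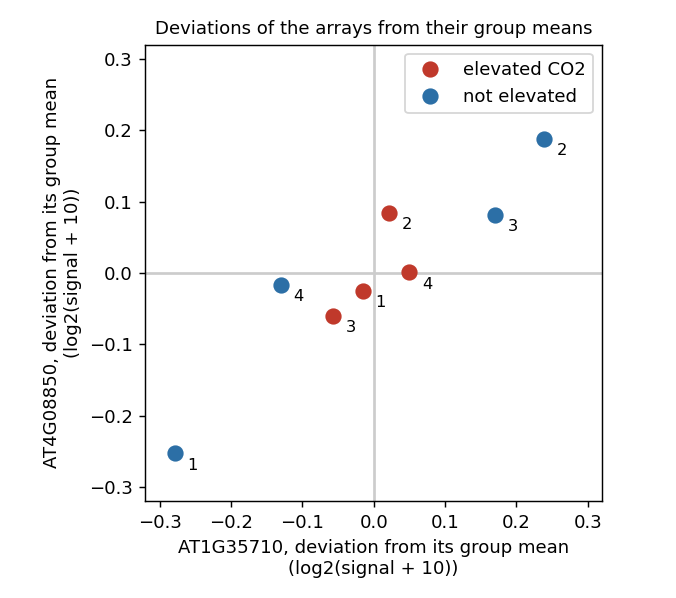
Deviation of each array from its group mean on the log2(signal + 10) scale, AT1G35710 on the horizontal and AT4G08850 on the vertical axis, 1 point per array with its replicate number. Elevated arrays (red) lie near 0 on both axes, and not-elevated arrays (blue) run between replicate 1 at the lower left (-0.28 and -0.25) and replicate 2 at the upper right (0.24 and 0.19).

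Of the array's 64 control probe sets, 35 averaged at least 20 units. Their group-centred r over the 8 arrays ran between -0.76 and 0.70 with AT1G35710, with a median of -0.44, and between -0.81 and 0.61 with AT4G08850, with a median of -0.46. Of 18 spike controls among the 35, probe sets for added transcripts that are not from the plant, 17 had an r below 0 with each gene. Several of the 18 read the same added transcript, so they do not count as separate controls. Of the 17 other controls, 12 had an r below 0 with AT1G35710 and 11 with AT4G08850. A pair of controls is shown by array, picked after their values were seen. The bioD spike, a bacterial control transcript added before hybridisation, read 443.1, 471.2, 673.9 and 395.6 units in elevated replicates 1 to 4. It read 790.3, 438.1, 442.0 and 434.7 units in not-elevated replicates 1 to 4. In each group the array with the highest spike signal was the one where both genes were lowest, and the group-centred r with the spike was -0.68 for AT1G35710 and -0.76 for AT4G08850 over 8 arrays. Of all tested probe sets, 4.00% had an r as low or lower with AT1G35710 and 2.07% with AT4G08850. The 25S ribosomal RNA control read 100.7, 191.2, 95.8 and 365.5 units in elevated replicates 1 to 4, and 112.1, 600.2, 146.5 and 73.4 units in not-elevated replicates 1 to 4. Its group-centred r was 0.70 with AT1G35710 and 0.61 with AT4G08850, the highest of the 35 with each gene. Of all tested probe sets, 4.52% had an r as high or higher with AT1G35710 and 8.33% with AT4G08850. The part of these array differences in the shared movement was not tested. The probe sequences were not used here, so whether transcript of one relative binds the probes of the other was not tested.

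The probe sets most like each gene inside the groups were other than its relative. For AT1G35710 the 5 with 1 gene and the highest group-centred r over 8 arrays were AT3G20510 and AT5G01960 (0.99 each), AT1G01910 (0.97), AT1G13990 (0.96) and AT2G45010 (0.96). For AT4G08850 they were AT5G11780, AT5G53050 and AT2G07070 (0.97 each), AT5G19350 (0.96) and AT5G16300 (0.96). None of the 10 passed the test between groups, with limma adjusted p between 0.375 and 0.899 and log2 differences between -0.45 and 0.30. Over the 8 arrays without removal of group means, each of the pair ranked 1 for the other, but that order holds the group difference on which both were chosen.

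No other gene listed for the wider LRR receptor kinase family and tested here passed the test between groups. Of 190 loci listed for this family without the pair, the gene tables name 113 on the array, and 60 of these passed the filter on signal. Family members among the 8730 probe sets with no gene in those tables could not be looked at. None of the 60 passed the adjusted threshold in limma. Only 0.314% of all tested probe sets did, so this count says little about the family. Of the 60, 5 had an unadjusted p under 0.05, 3 lower and 2 higher, or 8.33% against 11.1% of all tested probe sets. In direction, 25 were higher and 35 lower in elevated arrays, with a median log2 difference of -0.04 and a range between -0.64 and 0.37, beside a median of 0.0013 over all tested probe sets. Elevated arrays lay below all not-elevated arrays in 2 of the 60, AT5G59670 and AT2G26730, which at 3.33% is near the 3.22% of all tested probe sets.

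**Figure D4:**
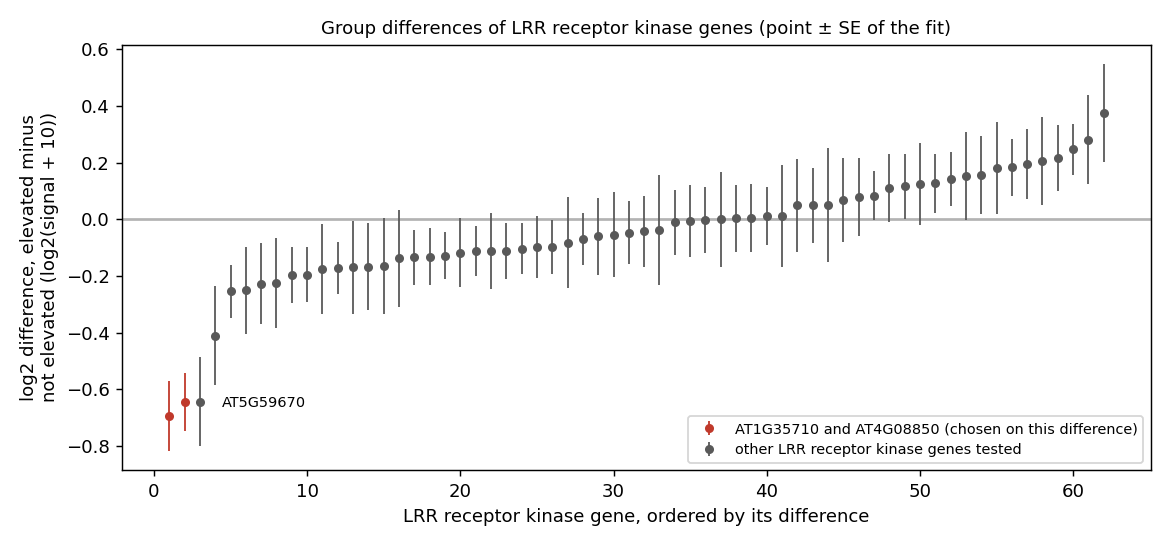
Log2 difference, elevated minus not elevated, on the vertical axis for the pair (red, chosen on this difference) and the 60 other tested LRR receptor kinase genes (grey), ordered by the difference along the horizontal axis; bars are the SE of the fit. The grey points run between -0.64, for AT5G59670, and 0.37, on both sides of a grey line at 0.

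AT5G59670, a family member with a malectin-like outer domain, read 23.4, 26.9, 28.4 and 26.7 units in elevated replicates 1 to 4. It read 60.7, 55.9, 42.7 and 32.2 units in not-elevated replicates 1 to 4. The groups did not overlap, but the gap was small and the not-elevated arrays were widely spread. The log2 difference was -0.64 ± 0.16 (SE), of the size seen in the pair, with limma adjusted p = 0.123. It did not move with the pair inside the groups, since its group-centred r was -0.004 with AT1G35710 and -0.20 with AT4G08850. Its highest not-elevated signal came in replicate 1, the array where both genes of the pair were lowest.

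AT5G25930, known as HSL3, a receptor of small secreted peptides, had the highest group-centred r of the 60 with each gene of the pair. The value was 0.83 with AT1G35710 and 0.89 with AT4G08850 over 8 arrays. It read 32.9, 41.4, 41.5 and 32.7 units in elevated replicates 1 to 4, and 34.8, 78.5, 55.6 and 48.2 units in not-elevated replicates 1 to 4. The groups overlapped through not-elevated replicate 1, and the log2 difference was -0.41 ± 0.17 (SE, limma adjusted p = 0.399). PSY1R, named as a receptor of the sulfated peptide PSY1, came next at 0.79 with AT1G35710 and 0.85 with AT4G08850. Its group means were 31.8 ± 3.57 units in elevated arrays and 28.6 ± 5.89 units in not-elevated arrays (SD, n = 4 each, limma adjusted p = 0.812). The lowest r of the 60 was that of AT2G24130, at -0.76 with AT1G35710 and -0.84 with AT4G08850.

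The remaining family members among the 5 with the smallest p were AT3G28040, AT2G26730 and AT5G41680. AT3G28040 averaged 531 ± 49.0 units in elevated arrays and 446 ± 30.6 units in not-elevated arrays (SD, n = 4 each, limma adjusted p = 0.307). AT2G26730 averaged 199 ± 22.5 units in elevated arrays and 238 ± 9.95 units in not-elevated arrays (SD, n = 4 each, limma adjusted p = 0.311). AT5G41680 had a log2 difference of 0.37 (limma adjusted p = 0.444). None of these differences passed the test.

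Genes around these receptors were taken from 11 lists with 122 loci, of which 28 are named on the array and 17 were tested. The 17 overlap with the 60 LRR family genes above, in AT3G47570, AT2G24130, AT1G27190, AT4G28650 and PSY1R. None of the 17 passed the adjusted threshold in limma. With 0.314% of all tested probe sets past it, this says little about so few genes, here or list by list below. Of the 17, 4 had an unadjusted p under 0.05, 2 lower and 2 higher, or 23.5% against 11.1% of all tested probe sets. In all, 9 were higher and 8 lower in elevated arrays, with a median log2 difference of 0.02. The growth receptor kinases have 1 gene named on the array, BRL1, a brassinosteroid receptor gene, which lay under the filter at 11.1 ± 6.08 units in elevated arrays and 8.50 ± 2.49 units in not-elevated arrays (SD, n = 4 each). The lists for the oxidative burst, calcium and MAP kinases and for salicylate defence have no gene that the tables used here name.

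Of the peptide ligands, 2 of 10 listed loci were tested. AT5G44580, the precursor gene of SCOOP10, a peptide of the family that AT4G08850 perceives, read 157.5, 175.6, 127.9 and 126.3 units in elevated replicates 1 to 4. It read 273.5, 241.0, 235.5 and 169.5 units in not-elevated replicates 1 to 4. The groups overlapped only through not-elevated replicate 4, which lay below elevated replicate 2. The means were 147 ± 23.9 units in elevated arrays and 230 ± 43.6 units in not-elevated arrays (SD, n = 4 each), and the log2 difference of -0.61 ± 0.14 (SE) did not pass the test (limma adjusted p = 0.101). Inside the groups it did not follow the receptor genes, with a group-centred r of 0.05 with AT1G35710 and -0.05 with AT4G08850. The ligand RALFL33, of a family perceived by FERONIA and related kinases, averaged 166 ± 16.4 units in elevated arrays and 164 ± 19.4 units in not-elevated arrays (SD, n = 4 each, limma adjusted p = 0.969).

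**Figure D5:**
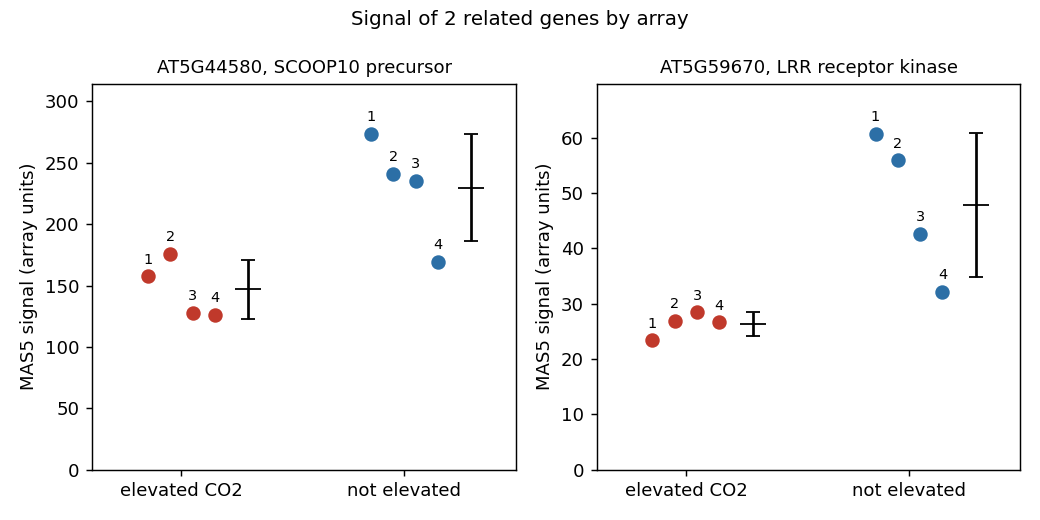
Signal in array units of AT5G44580, the SCOOP10 precursor (left), and of the receptor kinase gene AT5G59670 (right), 1 point per array with its replicate number, elevated arrays in red and not-elevated arrays in blue; bars give the mean ± SD of 4 arrays. Elevated arrays lie lower on average in both, with overlap for AT5G44580 only, and neither passed the test (limma adjusted p = 0.101 and 0.123).

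Among co-receptors and partners, 2 of 12 loci were tested and neither passed. AT1G27190, known as BIR3, which binds the SERK co-receptors, averaged 235 ± 25.6 units in elevated arrays and 212 ± 16.6 units in not-elevated arrays (SD, n = 4 each, limma adjusted p = 0.631). FER, the FERONIA receptor kinase of the cell wall, averaged 224 ± 15.9 units in elevated arrays and 208 ± 4.35 units in not-elevated arrays (SD, n = 4 each, limma adjusted p = 0.718). Both partner genes were slightly higher on average in elevated arrays, by less than the spread of the arrays allowed the test to call.

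Of the other surface receptors, 4 of 15 were tested and none passed. SD1-29, known as LORE, which perceives bacterial hydroxy fatty acids, averaged 18.0 ± 2.12 units in elevated arrays and 25.9 ± 7.15 units in not-elevated arrays (SD, n = 4 each, limma adjusted p = 0.503). AT4G28650, known as MIK1, a receptor kinase named with AT4G08850 from work on pollen tube attraction, averaged 18.4 units in elevated arrays and 23.6 units in not-elevated arrays (limma adjusted p = 0.585). THE1, the THESEUS1 kinase that acts in sensing of cell wall damage, averaged 91.3 ± 15.2 units in elevated arrays and 88.7 ± 5.97 units in not-elevated arrays (SD, n = 4 each, limma adjusted p = 0.959). Of the LRR receptor kinases of subfamily XII, to which FLS2 and EFR belong, 2 of 8 were tested. AT2G24130 had a log2 difference of 0.28 (limma adjusted p = 0.542) and AT3G47570 one of -0.17 (limma adjusted p = 0.748). EFR, the receptor of a bacterial elongation factor, lay under the filter at 1.57 units in elevated arrays and 1.89 units in not-elevated arrays and was not tested.

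Downstream, 3 of 9 cytoplasmic kinases were tested and none passed. AT3G09830, known as PCRK1, averaged 38.8 ± 8.69 units in elevated arrays and 50.8 ± 8.07 units in not-elevated arrays (SD, n = 4 each, limma adjusted p = 0.424). BIK1, which links receptor complexes to the oxidative burst, averaged 45.6 ± 4.50 units in elevated arrays and 43.6 ± 5.14 units in not-elevated arrays (SD, n = 4 each, limma adjusted p = 0.913). AT5G03320, known as PCRK2, had a log2 difference of -0.06. Of 15 output genes only WRKY22, a transcription factor gene, was tested, at 29.3 ± 3.83 units in elevated arrays and 34.3 ± 3.05 units in not-elevated arrays (SD, n = 4 each, limma adjusted p = 0.649).

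Of the negative regulators, PUB23, a ubiquitin ligase that dampens pattern-triggered signalling, averaged 58.7 ± 9.72 units in elevated arrays and 41.3 ± 6.95 units in not-elevated arrays (SD, n = 4 each, limma adjusted p = 0.240). Its relative PUB24 had a log2 difference of -0.05 (limma adjusted p = 0.949). ATERDJ3B, a chaperone partner in the endoplasmic reticulum that takes part in the folding of surface receptors, averaged 387 ± 32.5 units in elevated arrays and 334 ± 24.5 units in not-elevated arrays (SD, n = 4 each, limma adjusted p = 0.402). None of these 3 passed the test.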

How the data were processed

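The deposited intensity values of the 8 arrays are linear probe set signals. The authors used MAS5 according to the submitters' processing notes, where no version stands. Each array had a trimmed mean of 100 units (2% off each end), and such scaling hides a change common to all transcripts. Without detection calls, a dim signal and an absent transcript look alike.

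After 64 control probe sets were left out of 22810, 15296 whose signal averaged 20 units or more over the 8 arrays were tested. The 2 groups of 4 arrays were compared on log2(signal + 10) in limma (lmFit, then eBayes with trended variance; limma 3.58.1, R 4.3.3), two-sided, with Benjamini-Hochberg adjustment over all tested probe sets at 0.05. The pseudocount of 10 understates differences of dim genes. Signals carry SDs, and log2 differences carry SEs of the fit. No array repeated another (r of at most 0.986), so each counted as 1 sample.

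The genes, lists and tests were chosen with earlier results of these data known. Named genes are the pair, the 5 probe sets with 1 gene most like each by group-centred r, the 2 of each list and the 5 of the LRR family with the smallest p, FER, THE1 and BIK1, and the genes next to the threshold. AT5G25930's place by r, PSY1R and AT2G24130 as the family's next and lowest r, and EFR's untested level were added after their values were seen. The LRR family was to be found by product names, which the gene tables used here do not hold, so that rule matched 0 probe sets and a list of 190 loci was compiled from general knowledge afterwards. Names come from the platform's gene table, updated through RefSeq's TAIR10.1 gene table. Those tables give 1 gene for 13513 probe sets, several for 503 and none for 8730, so most pathway loci could not be matched to a probe set through them. No genome build is named in the sources used here, and no coordinates are given.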

Additional observations from a re-analysis of the deposited data

Results flagged for a closer look

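In 8 of 78 groups of 4 arrays of the named genes and controls, the highest or lowest array lay apart from the other 3 by Dixon's criterion. Chance gives this in about 1 of 20 groups that are chosen without regard to their values. Many of the genes were picked by r or p in these data, and the controls after their values were seen. That rate is therefore no yardstick for the 8. None of the 8 was a group of AT1G35710 or AT4G08850. Not-elevated replicate 1 stood apart in 3 of them. It read 24.0 units for AT2G24130, where the other not-elevated arrays read between 14.6 and 15.8 units. It read 143.9 units for AT2G43590, where the others read between 221.2 and 232.8 units. It read 790.3 units for the bioD spike, where the others read between 434.7 and 442.0 units. Not-elevated replicate 2 read 600.2 units for the 25S ribosomal RNA control, where the others read between 73.4 and 146.5 units. Elevated replicate 2 read 21.2 units for SD1-29 (others between 16.7 and 17.2 units), 129.1 units for AT2G45010 (others between 134.1 and 134.5 units) and 33.4 units for AT5G11780 (others between 29.8 and 30.3 units). Elevated replicate 3 read 85.7 units for AT5G16300, where the other elevated arrays read between 94.9 and 96.6 units.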

How the results depend on the processing

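Both genes of the pair read lower in elevated arrays under every alternative run, and a pseudocount of 50 moved the log2 difference most, to -0.49 for AT4G08850 and -0.44 for AT1G35710. Besides the left-out arrays, AT1G35710 was inside the selecting threshold in 6 of 9 other settings and AT4G08850 in 7 of 9. Both were outside without a filter (adjusted p = 0.154 for AT1G35710 and 0.0870 for AT4G08850) and without the variance trend (0.0743 for AT1G35710 and 0.0710 for AT4G08850). Of the genes next to the threshold, AT5G19240 was outside it in 13 of 17 alternatives (adjusted p between 0.0223 and 0.199), and AT2G43590 was inside in 3 of 17, with array weights (0.0148), with a filter at 50 units (0.0466) and without not-elevated replicate 1 (0.00322). With 1 array left out the log2 difference ranged between -0.73 and -0.58 for AT4G08850 and between -0.79 and -0.62 for AT1G35710, and the group-centred r between 0.83 and 0.97. The 48 calls over all tested probe sets became 132 with array weights, 9 without the trend, 1 without a filter, 28 with a pseudocount of 1 and 30 after quantile normalization. With 1 array left out it ranged between 0, without not-elevated replicate 3 (limma, 1395 at an unadjusted p under 0.05), and 131, without not-elevated replicate 1. The LRR family count of 0 stayed at 0 in all settings run. These called at most 132 probe sets in all, so the count had little room to change. Samples with the same replicate number did not deviate together (r between -0.18 and -0.04 over the 4 numbers). These r were not set beside those of samples with unlike numbers. Whether the numbers mark samples handled together was thus not tested, and the main fit used no block. With the replicate number as a block, limma called 50 probe sets and 1 pathway gene, AT5G44580 (adjusted p = 0.0445), and AT1G35710 had adjusted p = 0.0542. Small log2 differences changed sign with 1 array left out, and the cause was not tested: AT5G01960 between -0.12 and 0.0094, AT5G03320 between -0.11 and 0.0014, AT5G16300 between -0.046 and 0.19, BIK1 between -0.0069 and 0.10, FMA between -0.052 and 0.12, PUB24 between -0.14 and 0.081, RALFL33 between -0.054 and 0.078, and THE1 between -0.054 and 0.092. MAS5 signals without detection calls limit what can be said of genes near 20 units.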
